A study of Danio rerio with 4 samples.

Results

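The genes of the transcription machinery itself were followed through the maternal-to-zygotic transition of the zebrafish embryo. The members are the 102 of 25769 genes in the deposited table whose given name begins with polr, with med, taf and a digit, or with gtf2 or gtf3, or is tbp or tbpl2. The rule uses names only and no measured value, but it was chosen with earlier results of these data known. The study injected wild-type AB/TL embryos with 4-thiouridine (4sU) at the 1-cell stage, and collected pools of 25 embryos at 1 hpf (4-cell stage) and at 4.8 hpf (30% epiboly). All 4 libraries therefore carry 4sU and were treated with iodoacetamide, which makes a labeled residue read as C in place of T. The sample labels write 6 hpf and 20 mM 4sU, and the study's methods 4.8 hpf and 50 mM. The methods are followed here. Each stage has 1 polyA+ library (NextSeq, single-end reads) and 1 ribo-depleted library (NovaSeq, paired-end reads). Library type thus cannot be told apart from platform, and no stage has a replicate within a library type. The labels number 2 samples per stage without saying whether they are separate batches of embryos. In the fit with library type as a term, p-values rest on how far the stage change differs between the 2 library types. They do not measure the spread between batches of embryos.

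The nuclear RNA polymerases divide the genome among themselves. Pol I makes the large ribosomal RNA precursor, Pol II makes mRNA, and Pol III makes tRNA, 5S rRNA and other short RNAs, while the polymerase encoded by polrmt transcribes mitochondrial DNA. Pol II needs general factors (TFIIA, TFIIB, TFIID, TFIIE, TFIIF and TFIIH) to find a promoter and open it. TBP, the TATA-binding protein, is the core of TFIID, its associated factors are the TAFs, and Mediator connects DNA-bound activators to the polymerase. A cleaving zebrafish embryo is nearly silent in transcription, so that this machinery has to be supplied by the egg, as protein or as stored mRNA, before the embryo can make its own.

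The labeled fraction of a gene's RNA is its NTR (new-to-total RNA ratio), which the authors estimated with the program GRAND-SLAM. Levels are given as scaled RPM, the estimated read count over the library's effective size under TMM normalization, written as RPM, and are compared between stages within a library type. New RNA is that level multiplied by the NTR, and stored RNA is the unlabeled rest. The libraries held 9058807 and 10212400 reads (polyA+, 1 hpf and 4.8 hpf) and 22521675 and 17814709 reads (ribo-depleted). Stage markers followed the labels. All 5 zygotic markers rose (tbxta, gsc, sox3, cxcr4a, krt8), with an NTR of 66.1% to 74.2% in polyA+ and 73.9% to 84.5% in ribo-depleted RNA at 4.8 hpf. These values show how high the NTR of an almost purely zygotic gene reads in these libraries. Of the 5 maternal markers 3 fell (dnd1, nanos3, wee2), h1m and zar1 did not pass the test, and 2 markers of blood and muscle, ckma and hbba1, stayed below 1 scaled RPM. At 4.8 hpf the NTR of the maternal markers was 0% to 6.44% in polyA+ and 0% to 20.4% in ribo-depleted RNA. The upper values are those of h1m, which read 12.3% in ribo-depleted RNA already at 1 hpf. A ribo-depleted NTR of that size was thus also read for a maternal marker.

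All 102 members had reads in polyA+ RNA at 1 hpf, 101 had them in ribo-depleted RNA, and 101 were abundant enough to be tested. Between the stages 8 members rose in total RNA and 18 fell (edgeR quasi-likelihood test, adjusted p under 0.05), while 75 did not pass the test. In whole embryos, fewer cells that carry an RNA and less of it per cell cannot be told apart. Over all 16315 genes tested, 18.3% rose and 14.4% fell, against 7.92% and 17.8% of the members. The median log2 fold change was 0.14 over the members and 0.10 over all genes (-0.01 over the members with scaling to library totals). Among the risers were polr3gla, polr3glb, polr2k, med12, med23, gtf2ird1 and gtf2a1l.1. With scaling to library totals, which moves the median of all genes to -0.05, 4 members rose and 20 fell, and 4 of the 8 risers were no longer called, polr2k, gtf2ird1 and gtf2a1l.1 among them. The shares of all genes called under this scaling are not given here, so these counts are no result about the members in particular. DESeq2 lost the same 4. Those that fell were tbpl2, med19b, gtf3c3, med16, polr3f, gtf3c2, gtf3c4, polr1e, polr1d, polr2d, gtf2a2, med29, taf8, taf6l, taf3, med20, polr3b and med4. Each of these 18 remained called with scaling to library totals, and 12 of them with DESeq2, which lost med20, med29, med4, polr3b, taf3 and taf8. The fit has 1 residual degree of freedom. With library type left out of the model only 1 riser and 4 of the genes that fell remained called (polr3gla, and polr3f, gtf3c3, med19b and tbpl2).

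**Figure D1:**
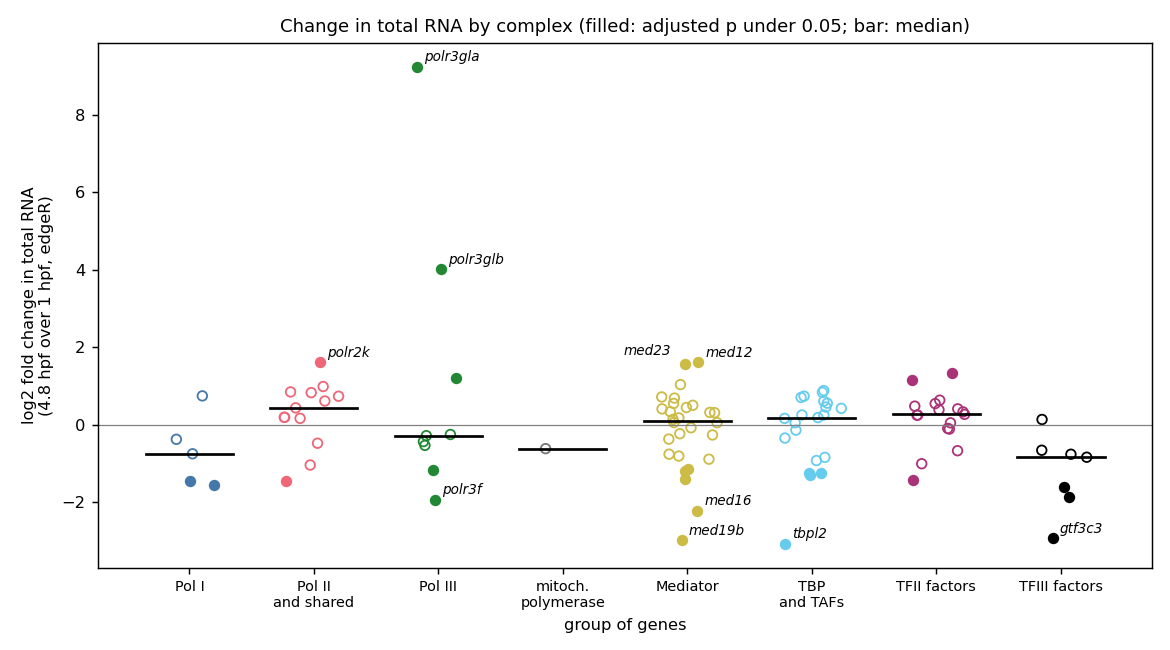
Log2 fold change in total RNA (4.8 hpf over 1 hpf, edgeR) of the 101 members tested, by complex. Each point is a gene, filled where the adjusted p is under 0.05, and bars are medians. The polr3gla and polr3glb genes stand far above the rest. The medians of Pol I (-0.75), Pol III (-0.28) and the TFIII factors (-0.84) lie below 0, as does polrmt (-0.61).

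TBP and its paralogue had unlike values, although the difference between them was not itself tested. tbpl2 encodes a TBP-related protein that in mice serves the growing oocyte. It was measured at 52.8, 5.57, 29.7 and 3.98 scaled RPM (in the order polyA+ 1 hpf, polyA+ 4.8 hpf, ribo-depleted 1 hpf and ribo-depleted 4.8 hpf, kept below). Both 4.8 hpf libraries were thus low, and tbpl2 fell by 3.07 on the log2 scale (SE 0.49, edgeR adjusted p = 4.2e-09). Of the 54 and 67 reads left at 4.8 hpf, 0% and 4.67% were estimated as labeled. tbp itself, which all the nuclear polymerases use, stood at 362, 224, 128 and 129. It was lower at 4.8 hpf in the polyA+ libraries and level in the ribo-depleted ones, and did not pass the test (log2 fold change -0.34, SE 0.54, edgeR adjusted p = 0.67). Its NTR at 4.8 hpf was 2.19% and 1.63%. At both stages the tbp RNA was therefore almost wholly unlabeled.

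**Figure D2:**
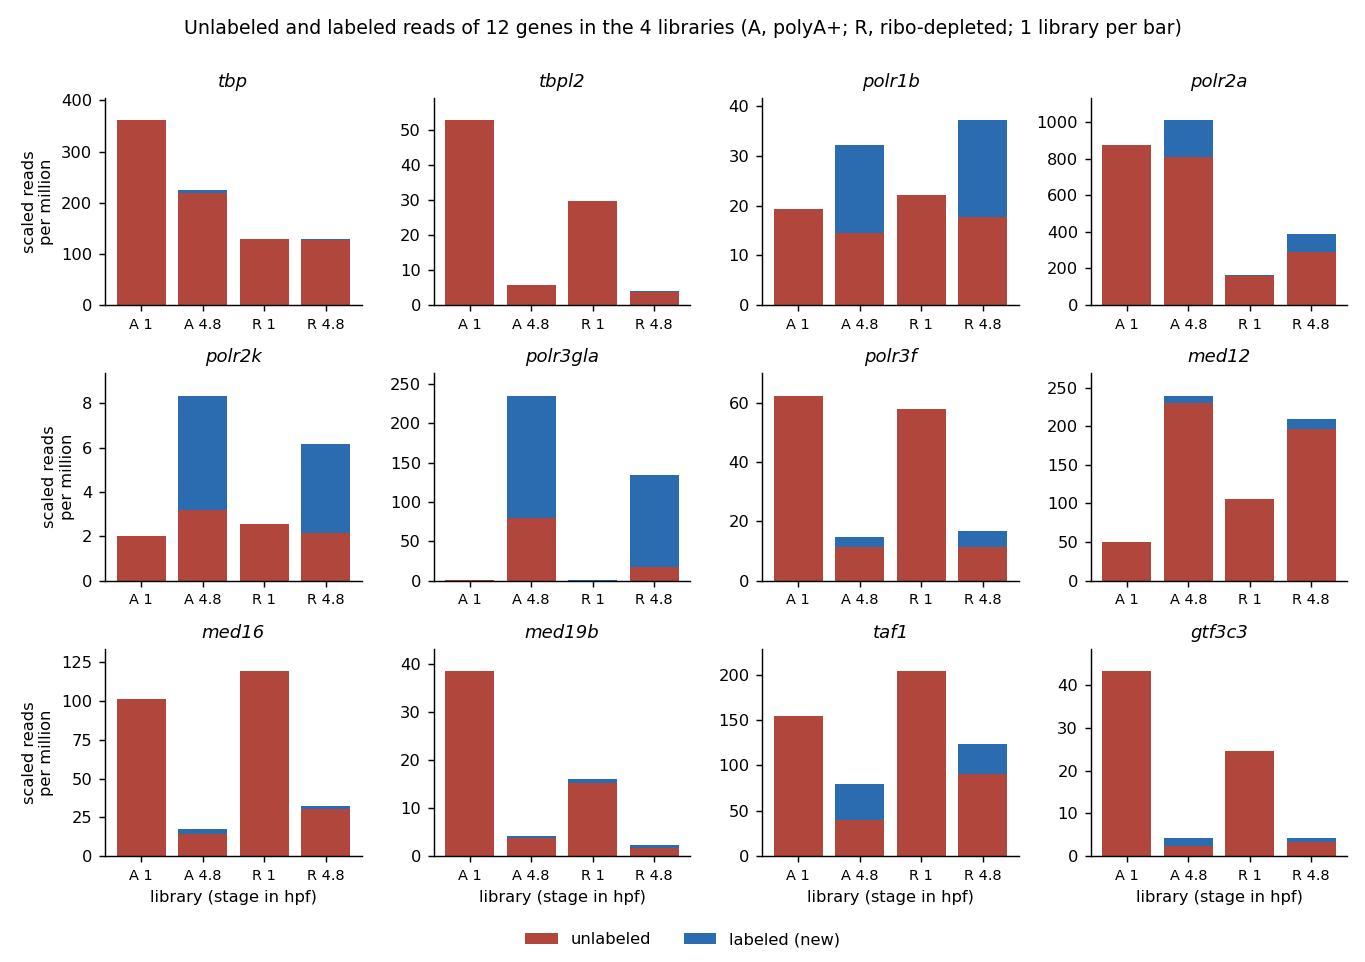
Unlabeled (red) and labeled (blue) scaled RPM of 12 genes in each of the 4 libraries (A, polyA+; R, ribo-depleted; stage in hpf), 1 library per bar. The RNA of tbpl2 went from 52.8 to 5.57 in the polyA+ libraries with almost no label, whereas polr3gla appeared at 4.8 hpf with mostly labeled reads.

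The opposite pattern came from a Pol III subunit. In mammals POLR3G and POLR3GL encode alternative versions of the subunit RPC7, the first of them typical of undifferentiated cells. The zebrafish table lists polr3g and a pair of genes named for POLR3GL. For polr3gla, 3 and 6 reads were counted at 1 hpf, against 2282 and 2259 at 4.8 hpf, in polyA+ and ribo-depleted RNA respectively. The level was 0.357, 235, 0.223 and 134 scaled RPM. This is a ratio of 659 in polyA+ (95% exact interval from counting error, 225 to 3199) and of 601 in ribo-depleted RNA (276 to 1639.8), and edgeR's adjusted p was 4.3e-34. Its NTR at 4.8 hpf was 66.3% and 87.4%, beside 66.1% to 74.2% and 73.9% to 84.5% for the zygotic markers. Conversions to C made up 5.23% and 5.63% of its covered T positions. polr3gla alone gave 13.1% and 12.7% of the new reads of all members at 4.8 hpf, and per kilobase it had the most new RNA of the members with at least 100 reads in either library (98.2 and 73.7 scaled RPM of new RNA per kilobase). Its unlabeled reads rose too (log2 fold change 7.70, edgeR adjusted p = 1.7e-30). Since almost none existed at 1 hpf, these cannot be told apart from new RNA that escaped labeling.

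The second gene of the pair, polr3glb, also rose, with far fewer reads. It had 7 reads at 1 hpf and 51 at 4.8 hpf in polyA+ RNA, and 0 and 46 in ribo-depleted RNA, a ratio of 6.31 in the former (95% exact interval 2.85 to 16.5), while in the latter it was at least 24.5-fold higher at 4.8 hpf (against a floor of 3 reads per library). The NTR was 72.5% and 65.6% at 4.8 hpf (edgeR adjusted p = 1.7e-07 for total RNA). polr3g was scarce throughout, with 17 and 0 reads in polyA+ and 12 and 4 in ribo-depleted RNA, and was not tested. A count of 0 allows up to 0.309 scaled RPM there. At 4.8 hpf nearly all reads of the RPC7 genes thus came from polr3gla in both library types.

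Of the 9 Pol III genes tested 3 rose, polr3gla and polr3glb among them, and 2 fell, beside 18.3% and 14.4% of all genes. polr3f, a subunit of the initiation subcomplex, stood at 62.4, 14.6, 57.7 and 16.8 and fell (log2 fold change -1.93, edgeR adjusted p = 0.00017), as did polr3b, the second largest subunit, at 41.5, 17.5, 47.8 and 22.7 (-1.16, edgeR adjusted p = 0.031, and 0.073 with DESeq2). The largest subunit, polr3a, did not pass the test, at 41.9, 33.1, 80.9 and 56.2 (log2 fold change -0.43, edgeR adjusted p = 0.49). Both genes that fell were lower at 4.8 hpf in each library type.

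Of the 7 genes of factors that bring Pol III to its templates, 3 fell and none rose (edgeR, 0 rises also by unadjusted p under 0.05 and by DESeq2). The shares over all genes were 14.4% and 18.3%. TFIIIC, which binds the promoters inside tRNA genes, had 5 members, of which 3 fell. The largest fall was that of gtf3c3, at 43.3, 4.33, 24.6 and 4.22 (log2 fold change -2.92, SE 0.49, edgeR adjusted p = 4.1e-08). gtf3c2, at 142, 30.1, 157 and 55.1, and gtf3c4, at 55.5, 17.9, 62 and 20.7, fell in both library types (edgeR adjusted p = 0.001 and 0.0021). All 3 genes stood lower at the later stage whichever library type was used. The other subunits, gtf3c5 and gtf3c6, did not pass the test (log2 fold change 0.14 and -0.66), nor did the TFIIIA genes. TFIIIA binds the 5S rRNA gene and, in Xenopus oocytes, the stored 5S rRNA. gtf3ab was at 158, 97, 207 and 106, with an NTR of at most 0.34% in any library. gtf3aa, at 23.6, 20.5, 35.8 and 14.5, had an NTR of 18.3% and 16.1% at 4.8 hpf.

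Among the 13 genes of Pol II and of the subunits common to all nuclear polymerases, 1 rose and 1 fell. Over all genes 18.3% rose and 14.4% fell. The catalytic subunit polr2a, whose tail of repeats is phosphorylated during transcription, was measured at 878, 1013, 161 and 389. The second largest subunit, polr2b, was at 281, 352, 133 and 343. Both were higher at 4.8 hpf in each library type, more so in ribo-depleted RNA, but neither passed the test (log2 fold change 0.74 and 0.85, SE 0.66 and 0.57, edgeR adjusted p = 0.41 and 0.26). Their NTR at 4.8 hpf was 20.1% and 25.8% for polr2a and 19.6% and 23.3% for polr2b. Together with polr3gla, these genes supplied 35.8% of the members' new reads in polyA+ and 32.2% in ribo-depleted RNA at 4.8 hpf. polr2d, the RPB4 subunit of the stalk, fell (109, 23.8, 24.3 and 15, log2 fold change -1.45, edgeR adjusted p = 0.0083). polr2gl, named for RPB7, the partner of RPB4 in the stalk, stood at 247, 386, 169 and 343, with an NTR of only 3.43% and 3.52% at 4.8 hpf.

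Among the common subunits, most of the RNA of polr2k was labeled at 4.8 hpf. polr2k, which encodes RPB12, rose from 2.02 to 8.35 and from 2.57 to 6.18 (edgeR adjusted p = 0.0082, and 0.051 with scaling to library totals), with an NTR of 61.7% and 65.5% from 81 and 104 reads. polr2f (RPB6) had an NTR of 41.2% and 45.7%, and polr2eb (RPB5) of 45.4% and 43.3%. Over the common subunits with at least 100 reads the median NTR was 38.6% in polyA+ (4 genes) and 43.3% in ribo-depleted RNA (5 genes). The genes of Pol II alone had medians of 19.6% (7 genes) and 15.6% (8 genes).

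Of the 5 Pol I genes 2 fell, both smaller subunits, beside 14.4% of all genes. polr1d, which Pol I and Pol III share, was at 72.4, 20.8, 54.5 and 25, and polr1e at 25, 11.8, 85.9 and 21.6 (edgeR adjusted p = 0.0063 and 0.0035). The catalytic pair differed in label. polr1a, the largest subunit, was at 115, 81.4, 212 and 106 with an NTR of 1.53% and 2.32% at 4.8 hpf, while polr1b, the second largest, was at 19.3, 32.1, 22.1 and 37.2 with an NTR of 55.2% and 52.2%. In polr1b 4.3% (95% Wilson interval 3.8% to 4.87%) and 3.51% (3.27% to 3.77%) of covered T positions were converted at 4.8 hpf, against 0.033% and 0.0796% at 1 hpf. These intervals cover counting error only. Neither gene passed the test in total RNA (log2 fold change -0.75 and 0.75, edgeR adjusted p = 0.26 and 0.19). The mitochondrial polymerase gene polrmt was at 16.1, 15.8, 83.6 and 37.5 and did not pass it either (edgeR adjusted p = 0.31).

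Mediator had 28 members, of which 2 rose and 5 fell, beside 18.3% and 14.4% of all genes. med12, the subunit that activates the kinase module, had the largest rise of them, at 50.3, 240.1, 106 and 209.8 (log2 fold change 1.61, SE 0.53, edgeR adjusted p = 0.01). med23, a tail subunit, was at 38.7, 144, 30.8 and 73.1 (log2 fold change 1.57, edgeR adjusted p = 0.0047). Both were higher at 4.8 hpf in each library type, although only 3.82% and 6.58% of the med12 RNA and 7.97% and 13.8% of the med23 RNA was labeled at 4.8 hpf. Their unlabeled reads rose as well (log2 fold change 1.78 and 1.66, edgeR adjusted p = 0.0073 and 0.0039). A level is a share of its library, so that a rise of unlabeled reads need not be a gain of stored molecules.

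In the tail, med16 fell from 101 to 17.2 and from 119 to 32.4 (log2 fold change -2.21, edgeR adjusted p = 4.1e-05). med29, which is placed in the tail too, fell with it (edgeR adjusted p = 0.017). The head subunit MED19 has a pair of genes here, with unlike values. med19b was at 38.6, 4.13, 16 and 2.38 (log2 fold change -2.98, edgeR adjusted p = 5.2e-08), whereas med19a was at 58.2, 63.9, 37 and 53.8 (0.34, edgeR adjusted p = 0.60). The difference between the paralogues itself was not tested. Of the other head and middle subunits med20 and med4 fell (edgeR adjusted p = 0.028 and 0.033). The scaffold med14, which holds the modules together, was at 505, 289, 121 and 154, and did not pass the test (edgeR adjusted p = 0.79). In the kinase module, med13a was at 155, 132, 101 and 82.6 and med13b at 440.1, 149.6, 106 and 91, with an NTR at 4.8 hpf of 25.3% to 34.65% over both genes and library types. Neither passed the test in total RNA (edgeR adjusted p = 0.72 and 0.21).

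Of the 21 TBP and TAF genes none rose in edgeR and 4 fell (tbpl2, taf3, taf8 and taf6l), beside 18.3% and 14.4% of all genes. There were 0 rises and 5 falls by unadjusted p under 0.05 in edgeR, and 0 rises and 2 falls by DESeq2. The 21 are grouped by name and do not all belong to TFIID. Its TAFs number 14 here, of which 2 fell in edgeR (taf3 and taf8). taf3, which binds trimethylated lysine 4 of histone H3, was at 144, 42.4, 26.1 and 16.1, and taf8 at 24.4, 11, 34.5 and 12.9 (edgeR adjusted p = 0.029 and 0.018). taf1, the largest TAF, was at 155, 79.7, 204 and 123. Total taf1 RNA did not pass the test (log2 fold change -0.84, edgeR adjusted p = 0.20), but its unlabeled reads fell (-1.31, edgeR adjusted p = 0.044), and 49.6% and 26.9% of it was labeled at 4.8 hpf. taf11 was labeled to 51% and 42.1%. At the other end, taf6, a TFIID subunit with a histone fold, was at 102, 91, 49.1 and 77.7 with an NTR of 0 in all 4 libraries. taf4a, at 24.6, 28.7, 17.8 and 19.3, and taf4b, at 14, 11.5, 9.37 and 9.38, had an NTR of at most 1.93% in any library.

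The TAF-like subunits of SAGA, a coactivator complex, were taf5l and taf6l. taf6l was at 107, 42.6, 139.6 and 62.6 and fell (log2 fold change -1.24, edgeR adjusted p = 0.034). Its TFIID counterpart taf6, given above, did not pass the test (0.25, edgeR adjusted p = 0.72), and the difference between taf6l and taf6 was not itself tested. taf5l, at 33.9, 52, 139 and 98.3, and taf5, at 74.3, 119, 98 and 110.1, did not pass the test (edgeR adjusted p = 0.94 and 0.53).

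Of 17 TFII genes 2 rose and 1 fell, beside 18.3% and 14.4% of all genes, and none of the 13 genes of TFIIB, TFIIE, TFIIF, TFIIH and of the larger TFIIA subunit named gtf2a1 passed the test (edgeR, 1 of the 13 by unadjusted p under 0.05, none by DESeq2). With scaling to library totals 1 of them, gtf2h1, fell (edgeR adjusted p = 0.047, against 0.079 with TMM). The 13 leave out gtf2a1l and the TFII genes that passed the test, gtf2a2, gtf2a1l.1 and gtf2ird1. The lack of calls among them thus follows in part from the grouping. gtf2ird1 is counted with the TFII genes by its name, which refers to TFII-I repeats, and belongs to none of TFIIA to TFIIH. gtf2b, the gene of TFIIB, was at 137, 193, 69.1 and 119 with an NTR of 3.68% and 7.83% at 4.8 hpf. gtf2a1 was at 1460.0, 1106, 478 and 892, with an NTR of at most 0.36%. Per kilobase it ranked first among the members in both ribo-depleted libraries (175 and 326 scaled RPM per kilobase) and second in both polyA+ libraries (534 and 404).

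Within TFIIA, 1 gene fell and 1 rose. The gene of the small subunit, gtf2a2, was at 108, 31.4, 47.4 and 22.3 (log2 fold change -1.43, edgeR adjusted p = 0.0082), with an NTR of 38.4% and 24.6% at 4.8 hpf. It was lower at 4.8 hpf in both library types. Of the genes named gtf2a1l, the gene written gtf2a1l.1 was at 11.6, 33.4, 10.9 and 19.2 and rose (edgeR adjusted p = 0.038, and 0.13 with scaling to library totals and 0.10 with DESeq2), and the other was at 5.59, 13.5, 13.7 and 11.6 (edgeR adjusted p = 0.48). Some read counts of gtf2a1l.1 are fractions, as for 44 members in all, so reads may be shared between gene copies, and both values are uncertain. In TFIIF, gtf2f2a was at 93.5, 99.6, 58.3 and 93.7 and gtf2f2b at 3.51, 4.33, 6.21 and 4.57. In TFIIH, the complex that opens the promoter, gtf2h2 stood out by its NTR of 48.1% and 50.3%, with levels of 41.9, 41.4, 20.3 and 32.6, while the other 5 genes had an NTR of at most 9.46%.

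At 4.8 hpf, 88 members reached 100 reads in each library type, enough for their NTR to be compared between the types. Of these, 20 had an NTR under 5% in both libraries, 1 (polr3gla) had an NTR over 65% in both, and 67 lay between. These limits are the ones the study used to call genes maternal and zygotic in single cells. Over all 8932 genes with that many reads, 34.1% were under 5%, 5.18% over 65% and 60.7% between, against 22.7%, 1.14% and 76.1% of the members. The median NTR of the members was 9.63% in polyA+ (88 genes) and 12.04% in ribo-depleted RNA (94 genes), beside 8.04% and 8.49% over all genes. Weighted by reads, 11.4% and 12.8% of the members' RNA was labeled, against 16.4% and 18.7% of all RNA. The NTR of the members correlated between library types (Pearson r = 0.90, Spearman rho = 0.88, 88 genes, given as a description, since both libraries come from embryos injected alike). Highest on average were polr3gla, polr1b, gtf2h2, med20 and taf11, and lowest taf6, gtf3ab, taf4a, gtf2a1 and gtf3c2.

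**Figure D3:**
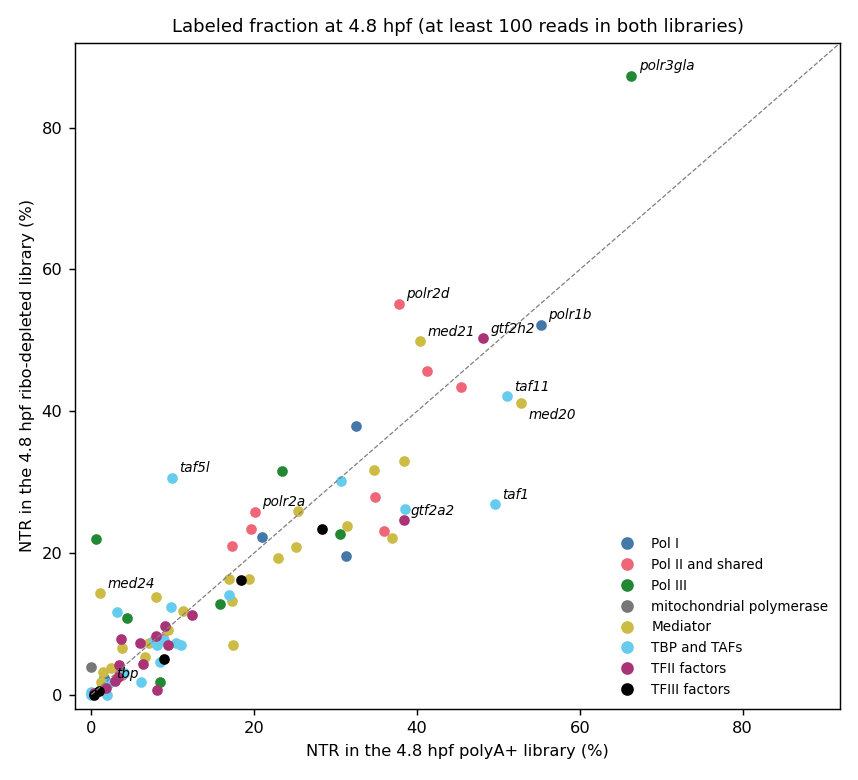
NTR (%) of 88 members in the 4.8 hpf polyA+ (x) and ribo-depleted (y) libraries, each point a gene with at least 100 reads in both, colored by complex, with the line of equality dashed. Most genes lie near the line, polr3gla stands alone at 66.3% and 87.4%, and taf5l and med24 lie above it.

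Falling in total RNA did not mean going without new RNA. Of the 18 members that fell, 14 had at least 100 reads in both 4.8 hpf libraries, and 10 of these had an NTR of at least 20% in both (71.4%). Among all 1083 falling genes with that many reads the share was 12.8%, and among all 8932 genes it was 26.2%. The 10 genes were gtf2a2, polr1d, polr1e, polr2d, polr3b, polr3f, med4, med20, taf3 and taf8. For example, med20 was at 56.8, 19.5, 22 and 12.4 while its NTR reached 52.8% and 41.2%, so that 10.3 and 5.09 scaled RPM were new. The other 4 were gtf3c2, gtf3c4, med16 and taf6l. In gtf3c2 the NTR was 0.96% and 0.56%, and almost nothing new had been added to what was left. The choice of these limits was made after the values were seen. Of the 10 genes, DESeq2 did not call med20, med4, polr3b, taf3 and taf8, whereas it called all of the other 4. With library type left out, polr3f alone of these 14 remained called. The limit of 100 reads left out tbpl2, med19b and gtf3c3, the largest falls, and med29. The share of 71.4% thus depends on the processing.

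The unlabeled reads were compared between stages with the same test. They fell for 20 members and rose for 6 of 101 tested, which is 19.8% and 5.94%, beside 12.8% and 10.9% of all 15325 genes tested. All 5 zygotic markers rose in unlabeled reads too (median log2 fold change 6.83). A rise in unlabeled reads, among members or all genes, thus need not be a gain of stored RNA. Of the 20, 17 had also fallen in total RNA. The other 3 were polr2eb, taf1 and med18, whose total RNA did not pass the test. polr2eb went from 102 to 22 unlabeled scaled RPM in polyA+ and from 56.5 to 19.2 in ribo-depleted RNA (edgeR adjusted p = 0.0026), while 18.3 and 14.7 were labeled at 4.8 hpf. Of the 18 members that fell in total RNA, 1 did not pass the test in unlabeled reads (taf6l, edgeR adjusted p = 0.096). polr2k and gtf2ird1 rose in total but not in unlabeled reads (edgeR adjusted p = 0.64 and 0.47), and 54.99% of the gtf2ird1 RNA in the 4.8 hpf ribo-depleted library was labeled.

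**Figure D4:**
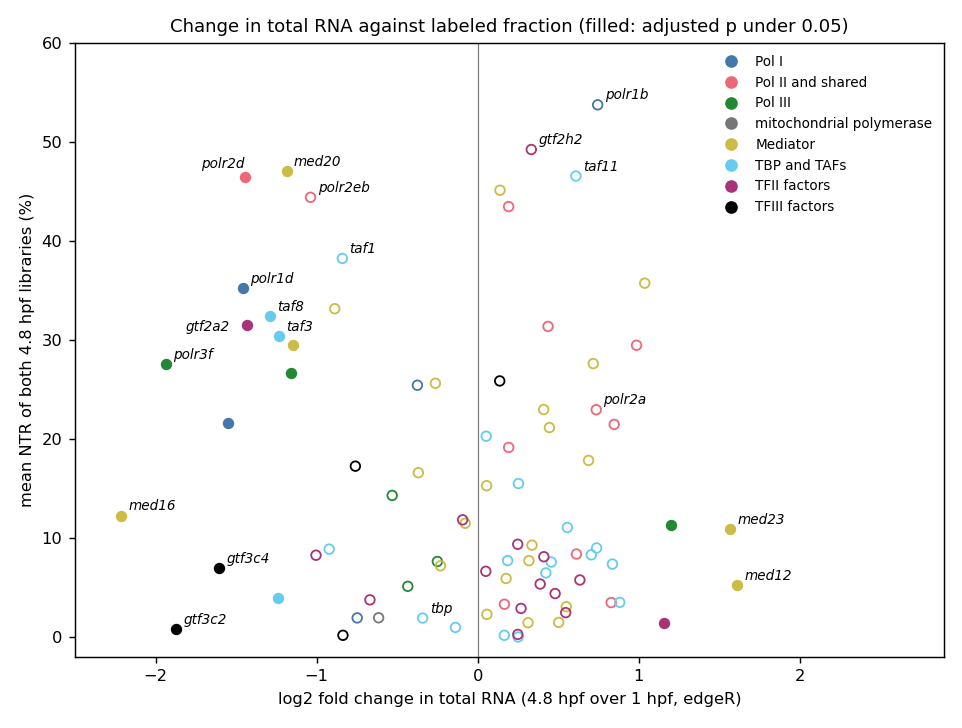
Log2 fold change in total RNA (4.8 hpf over 1 hpf, edgeR) against the mean NTR (%) of both 4.8 hpf libraries for 87 members with at least 100 reads in both, filled where the adjusted p is under 0.05. polr3gla, at 9.24 and 76.8%, is left out of the frame. Among genes that fell, polr2d and med20 have mean NTRs of 46.5% and 47.0% and gtf3c2 has 0.76%, while the risers med12 and med23 have 5.20% and 10.9%. Over 88 members, polr3gla included, the Spearman rho of the 2 quantities was -0.10.

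Some label was already estimated at 1 hpf, almost only in the ribo-depleted library. There, 6 of the 97 members that reached 100 reads stood at or over an NTR of 5% (6.19%, beside 7.09% of 11491 genes), and in the polyA+ library 0 of 86 did (beside 0.558% of 8418 genes). Among them were taf5l (18.9%), med24 (11.2%), med21 (10.9%), polr2f (6.9%) and polr2d (5.34%). In med24 the T-to-C conversion rate was 0.895% (95% Wilson interval 0.845% to 0.947%) at 1 hpf and 0.994% (0.944% to 1.05%) at 4.8 hpf in ribo-depleted RNA, and 0.25% (0.21% to 0.297%) at 4.8 hpf in polyA+ RNA. Its NTR at 4.8 hpf was 14.3% in ribo-depleted and 1.08% in polyA+ RNA. In taf5l the NTR went from 18.9% to 30.6% in ribo-depleted RNA and from 0% to 9.92% in polyA+ RNA. In polr2f the conversion rate at 1 hpf was 0.863% (0.633% to 1.18%) in polyA+ and 0.819% (0.715% to 0.937%) in ribo-depleted RNA. Its NTR was 0.87% and 6.9% there, although the rates were alike. In taf5l, med21 and polr2d the rates at 1 hpf were 0.229%, 0% and 0.0664% in polyA+ RNA. In ribo-depleted RNA they were 1.28%, 0.899% and 0.962%. For the genes listed, a ribo-depleted NTR was thus already read at 1 hpf. Whether the NTR at 4.8 hpf includes the same signal was not tested. The source of the signal was not tested either, and libraries without 4sU were not analysed here.

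Stage changes often differed in sign or size between the library types. Among 82 members with at least 100 reads in all 4 libraries, 22 changed in opposite directions in the 2 library types (26.8%, beside 25.5% of 7376 genes), and in 52 the log2 change was higher in ribo-depleted RNA (63.4%, beside 62% of genes). The shares are near those of all genes. The widest gaps were those of med6, gtf3c5 and med7. med6, a head subunit, was at 20.0, 62.8, 42.5 and 37.2, a log2 change of 1.65 in polyA+ and -0.19 in ribo-depleted RNA. gtf3c5 was at 21.1, 41.5, 48.9 and 30.6 and med7, a middle subunit, at 16.4, 39, 66.9 and 53.6. All 3 were higher at 4.8 hpf in polyA+ and lower in ribo-depleted RNA, and none passed the test that joins both types (edgeR adjusted p = 0.24, 0.85 and 0.49; unadjusted p = 0.12, 0.76 and 0.33). With 1 library per stage and type, the difference between the types could not be tested gene by gene.

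**Figure D5:**
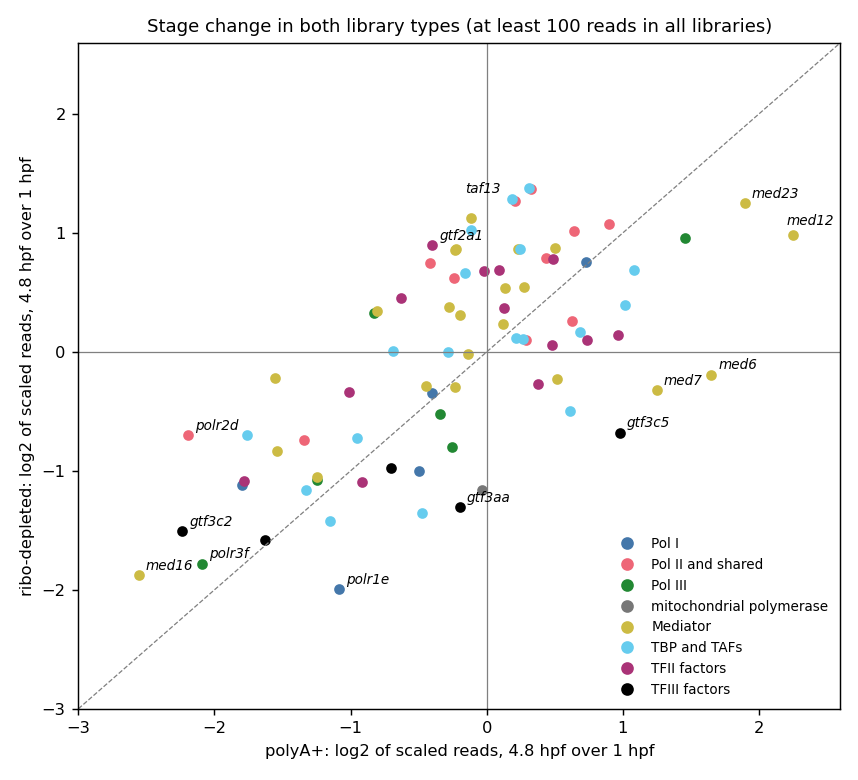
Log2 ratio of scaled reads (4.8 hpf over 1 hpf) of 82 members in the polyA+ (x) and ribo-depleted (y) libraries, each point a gene with at least 100 reads in all 4, with the line of equality dashed. med12 and med23 are high and med16, gtf3c2 and polr3f low in both types, whereas med6, med7 and gtf3c5 lie in the lower right, up in polyA+ and down in ribo-depleted RNA.

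Other genes of the same pathway were read from 3 further lists. Of 7 tested kinases and partners of TFIIH and Mediator, 0 rose and 3 fell (ccnh, cdk7 and mnat1, the subunits of the CDK-activating kinase of TFIIH; edgeR, with 0 rises and 3 falls by unadjusted p under 0.05, and 0 and 2 by DESeq2). cdk7 had an NTR of 53.95% and 46.1% at 4.8 hpf. Of 28 pausing and elongation factors, 2 rose (paf1 and ssrp1b) and 0 fell (1 by unadjusted p under 0.05 and 0 by DESeq2), with a median log2 fold change of 0.60. These calls depended on the processing, since with scaling to library totals 0 rose and 1 fell (ell), with no filter on low counts and with library type left out 0 rose, and with DESeq2 3 rose (paf1, leo1 and supt5h). Of 13 genes listed under Pol I and Pol III initiation, 0 rose and 4 fell (brf2, snapc1a, snapc4 and ubtfl), with a median of -0.51. There were 0 rises also by unadjusted p under 0.05 in edgeR and by DESeq2. The list is a broad one that also counts crcp and the snapc genes. The background is again 18.3% rising and 14.4% falling. tbpl1, the other TBP-related gene, was on the same list although its protein serves Pol II promoters, and is given apart. It went from 151 to 30.8 scaled RPM in polyA+ and from 80.8 to 30.8 in ribo-depleted RNA (edgeR adjusted p = 0.000855), with an NTR of 22.1% and 19.9% at 4.8 hpf. Like tbpl2 it was low in both 4.8 hpf libraries, but unlike tbpl2 its remaining RNA carried label.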

How the data were processed

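Total RNA was measured in 4 libraries from 4sU-injected embryos, a polyA+ and a ribo-depleted library at each of 2 stages. The authors trimmed reads with cutadapt 3.5, aligned them with STAR 2.7.10a to GRCz11 with Ensembl annotation, and ran GRAND-SLAM 2.0.5f. The deposited table holds the estimated count of reads per gene, which need not be whole, the NTR as a fraction, and the authors' coverage of T bases with the conversions seen, which are signal columns. For the counting, the sources used here give no strand setting.

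Counts, total and unlabeled (count multiplied by 1 - NTR), were rounded and tested with edgeR 4.0.16 (R 4.3.3): TMM scaling, filterByExpr, quasi-likelihood test with library type as covariate, Benjamini-Hochberg adjustment over all genes tested, threshold 0.05. The standard error was derived from the log2 fold change and the F statistic. DESeq2 1.42.0, library totals, no filter, no library type and leaving out each library were the alternatives. On simulated counts of 15982 genes with 200 changed, the total RNA test recovered 4.84% of 2-fold, 63.2% of 4-fold and 91.4% of 8-fold changes, and 4.35% of its calls were false. The simulation gave every gene the same dispersion and made each change alike in both library types. In the data 25.5% of 7376 genes changed in opposite directions in the 2 types, so these rates need not hold for the calls here. Medians, classes and rankings of NTR use genes with at least 100 reads in a library. The NTRs of some genes with fewer reads, such as tbpl2, polr3glb and polr2k, are also given and are less certain. T-to-C shares have Wilson intervals at 95%, which cover counting error only. Depth was 9058807 to 22521675 reads.

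Described with values were TBP genes, catalytic subunits, polrmt, med14, taf1 and gtf2b, the 5 largest rises and falls, the 5 highest and lowest mean NTRs, the 3 widest gaps between library types and paralogue pairs. Further genes were named after their values were seen. Members and lists were chosen with earlier results of these data known. Counts cover all members, and 1 member is not reported here by name.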

Additional observations from a re-analysis of the deposited data

How the results depend on the processing

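No paired analysis was possible because the deposited table names its libraries by stage and instrument and carries no replicate number. Library type, with 1 library of each type per stage, is already a term of the model. No named member past the threshold changed direction under any alternative run, but 18 named members that did not pass it changed sign when a library was left out. Their log2 fold changes then ranged as follows: gtf2a1 -0.52 to 1.01, gtf2a1l -0.17 to 1.18, gtf2f2b -0.53 to 0.34, gtf2h2 -0.16 to 0.81, gtf3c5 -0.49 to 0.80, med13a -0.65 to 0.051, med13b -1.84 to 0.14, med14 -1.16 to 0.83, med7 -0.59 to 1.51, polr2a -0.43 to 2.08, polr3a -0.92 to 0.11, polrmt -1.72 to 0.73, taf11 -0.045 to 1.28, taf4a -0.15 to 0.44, taf4b -0.40 to 0.11, taf5l -0.95 to 1.16, taf6 -0.25 to 0.73 and tbp -1.01 to 0.42. Of these, gtf3c5 was at -0.013 and taf5l at -0.10 with library totals, and taf5l at -0.20 with library type left out. With a library left out, library type is mixed with stage, so these changes of sign cannot tell whether the stage direction is settled. Members that rose in total RNA numbered 8, against 4 with library totals, 4 with DESeq2, 1 with library type left out and 1 to 2 when each library was left out in turn. Those that fell numbered 18, against 4 with library type left out and 0 to 3 when each library was left out (without the 4.8 hpf ribo-depleted library 0, with 6 by unadjusted p under 0.05 in edgeR). Over all genes 2983 rose, against 1607 without library type and 814 to 1623 with a library left out, and 2343 fell, against 1478 with DESeq2, 370 without library type and 46 to 241 with a library left out. In unlabeled reads 6 members rose, against 1 without library type and 0 to 1 with a library left out, and 20 fell, against 1 and 0 to 0 (7 to 17 by unadjusted p under 0.05 in edgeR). Over all genes 1675 rose in unlabeled reads, against 358 and 0 to 621, and 1969 fell, against 1203 with DESeq2, 40 without library type and 0 to 176 with a library left out. Fits with a library left out also leave out library type and leave 1 stage with a lone library, assumed to vary like the other stage. The member with an NTR over 65% was no longer over it with the 1 hpf NTR subtracted (0, polr3gla having 6 ribo-depleted reads at 1 hpf), and limits of 10% and 50% gave 2 members over and 39 under, in place of 1 and 20. The shares of all genes at limits of 10% and 50% are not given here, so these counts show only how the classes depend on the limits. The median NTR of the members stayed within its interval under each alternative run (8.07% to 17.3% in polyA+ and 7.68% to 16.3% in ribo-depleted RNA at 4.8 hpf). These intervals are taken over the member genes of a single library. Genes are not replicates, so that this does not show how the median would vary between embryos. Genes with few reads, such as polr3g and polr2k, are limited by depth. The members' counts with library totals have no counts over all genes beside them.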

Other observations

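taf15, which the naming rule includes although it belongs to the FET family of RNA-binding proteins, differed most plainly between library types, and was picked after its values were seen. It was at 1135 and 1409.8 scaled RPM in polyA+ RNA (1 hpf and 4.8 hpf) and at 11.1 and 28.9 in ribo-depleted RNA. Per kilobase it ranked first among the members in both polyA+ libraries. Selection, kit, platform and read layout cannot be told apart here.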
